A study of Mus musculus with 12 samples.

Results

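The genes examined were the 7 that mark which fast transmitter a cerebellar cell releases or clears: the vesicular glutamate transporters *Slc17a6* and *Slc17a7*, the vesicular inhibitory amino acid transporter *Slc32a1*, the GABA-synthesizing enzymes *Gad1* and *Gad2*, the GABA transporter *Slc6a11* and the glycine transporter *Slc6a5*. They were chosen by symbol and make up 7 of the 24091 genes in the deposited table, and 7 of 7 were above the expression minimum in every comparison. Expression was measured by RNA sequencing in 12 mouse samples, in TPM, an abundance that corrects for transcript length and for the total of each library. The 4 groups held 3 samples each. Tumors were medulloblastomas of the Brca2-mut;Trp53-mut mice GB344, GB359 and GB370, and adjacent cerebellum came from the same 3 mice. The controls were cerebella at postnatal day 90, of Brca2-mut;Trp53-WT mice GB361, GB508 and GB512 and of Brca2-WT;Trp53-mut mice GB517, GB519 and GB520. In the Brca2 mutant mice an hGFAP-Cre transgene removes the floxed exons 3-4 of *Brca2* in the cells in which it is active, which include neural progenitors and glia, so cells outside that lineage keep the intact allele. The Trp53 mutation is a germline null, and all groups but the Brca2-mut;Trp53-WT controls carry it. Tumor mice were euthanized when they became ill, and their ages are not given per sample in the sources used here.

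Transmitter identity in the cerebellum follows lineage. Granule neurons, unipolar brush cells and the large projection neurons of the nuclei are glutamatergic and descend from *Atoh1*-expressing progenitors of the rhombic lip. Immature granule neurons use the transporter encoded by *Slc17a6* (VGLUT2), and mature granule neurons use mainly that encoded by *Slc17a7* (VGLUT1). *Slc17a6* in adult cerebellum also comes from unipolar brush cells and neurons of the nuclei. Purkinje cells and molecular layer interneurons are GABAergic. They make GABA with GAD67 (*Gad1*) and GAD65 (*Gad2*) and load it into vesicles with VGAT (*Slc32a1*). Golgi cells release GABA and glycine, and the plasma membrane transporter GlyT2 (*Slc6a5*) supplies their glycine. Astrocytes take up GABA with the transporter encoded by *Slc6a11*. SHH subgroup medulloblastoma arises from granule cell progenitors.

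The genes lie on 3 chromosomes of GRCm38 (mm10), and in RefSeq 7 of 7 were matched. *Slc17a6* lies at chr7:51621830-51671126, *Slc17a7* at chr7:45163921-45176139, *Slc6a5* at chr7:49906984-49963864, *Slc32a1* at chr2:158607260-158615747, *Gad1* at chr2:70561303-70602014, *Gad2* at chr2:22621015-22693877 and *Slc6a11* at chr6:114131241-114249886, all on the plus strand. The 250 bases before a RefSeq transcription start are shown for the glutamate transporter pair and for the GABA genes with the largest falls. Mean RNA of the glutamate pair in tumors differed from controls in opposite directions. The sequences are given 5′ to 3′ from RefSeq (GRCm38.p6), with every match to the E-box letters CANNTG in capitals. E-boxes are the motif that basic helix-loop-helix factors such as ATOH1 and PTF1A read.
Slc17a6 (chr7:51621580-51621829, + strand): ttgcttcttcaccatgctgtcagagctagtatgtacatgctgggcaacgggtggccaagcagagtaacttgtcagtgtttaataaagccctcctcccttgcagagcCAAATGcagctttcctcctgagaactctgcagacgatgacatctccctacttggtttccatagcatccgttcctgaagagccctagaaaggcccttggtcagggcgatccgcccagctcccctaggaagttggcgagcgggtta
Slc17a7 (chr7:45163671-45163920, + strand): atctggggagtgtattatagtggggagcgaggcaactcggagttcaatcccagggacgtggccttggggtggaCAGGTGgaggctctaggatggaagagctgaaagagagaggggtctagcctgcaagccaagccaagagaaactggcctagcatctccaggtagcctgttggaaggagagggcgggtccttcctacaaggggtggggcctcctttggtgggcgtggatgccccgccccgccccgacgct
Slc32a1 (chr2:158610508-158610757, + strand): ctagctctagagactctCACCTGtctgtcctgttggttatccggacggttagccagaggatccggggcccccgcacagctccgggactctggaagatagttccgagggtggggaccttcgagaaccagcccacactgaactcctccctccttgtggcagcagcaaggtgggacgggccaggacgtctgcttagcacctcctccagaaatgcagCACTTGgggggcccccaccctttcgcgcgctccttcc
Gad1 (chr2:70561879-70562128, + strand): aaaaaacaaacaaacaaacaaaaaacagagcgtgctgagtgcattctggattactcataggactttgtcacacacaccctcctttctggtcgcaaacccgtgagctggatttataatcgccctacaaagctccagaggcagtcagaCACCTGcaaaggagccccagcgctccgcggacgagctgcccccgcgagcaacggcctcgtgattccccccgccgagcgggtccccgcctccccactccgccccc

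The E-box letters stood once in the *Slc17a6*, *Slc17a7* and *Gad1* windows and at 2 places in the *Slc32a1* window. Of the 32851 RefSeq windows of the same length, 66.2% held at least 1 match and 31.8% at least 2. All motifs were searched on both strands. The GC box GGGCGG stood once before *Slc17a6*, 3 times before *Slc17a7* and once before *Gad1*. Of all windows, 32.7% held it at least 1 time and 8.47% at least 3 times. Among these 4 windows the TATA letters TATAAA were found only before *Gad1*, on the minus strand (read as tttata in the printed sequence), 141 bases before the start, and 12.4% of all windows held them. GC content was 53.2% for *Slc17a6*, 61.2% for *Slc17a7*, 62.4% for *Slc32a1* and 58% for *Gad1*, with a median of 52.4% over all windows. The windows of *Slc32a1* and *Gad1* begin at a RefSeq start that is not the outermost one of the gene. *Slc17a6* has 2 RefSeq windows, and only the first is printed and counted above. The other (chr7:51624387-51624636) held 2 E-box matches, no GC box and 41.2% GC. These matches describe letters and are no evidence of binding.

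Between 15088 and 15803 genes reached 1 TPM in a sample. TPM keep no read depth, so the counting error behind each value is unknown and precision was read from the spread between mice. In bulk tissue, fewer cells of a type and less RNA per cell cannot be told apart. The tissue labels were compared with cell type markers summed in TPM. The list of 10 granule progenitor and SHH tumor markers summed to between 2304 and 2736 in tumors and between 34.9 and 73.3 in controls. It summed to 827 and 630 in the adjacent samples GB344 and GB359 and to 94.8 in adjacent GB370. *Atoh1*, its defining factor, was at 59.4, 50.5 and 5.0 TPM in those 3 adjacent samples, at or below 0.212 in every control and listed at 0 in control GB508. Adjacent GB344 and GB359 thus stood apart from the controls and from GB370, and the comparisons that use adjacent samples were also run with GB370 as the only adjacent sample. *Trp53* was at 33.1 to 37.2 TPM in Brca2-mut;Trp53-WT controls, 47.1 to 49.4 in Brca2-WT;Trp53-mut controls, 66.1 to 85.0 in adjacent cerebellum and 124 to 130.5 in tumors. *Brca2* was at 3.4 to 3.79, 3.24 to 4.40, 4.52 to 6.98 and 8.22 to 14.6 TPM in the same order. Both values sum over transcripts with exons outside the deleted part, so they check neither genotype.

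In control cerebellum the genes were ordered by level in TPM as *Gad1* and *Slc17a7*, then *Slc32a1*, *Gad2*, *Slc6a11*, and lastly *Slc6a5* and *Slc17a6*. The first pair overlapped between samples, at means of 454 ± 39.8 and 445 ± 40.8 (SD, n = 6). *Slc32a1* at 178 ± 17.6, *Gad2* at 71.8 ± 4.90 and *Slc6a11* at 40.6 ± 4.16 were each apart from their neighbours. *Slc6a5* at 17.5 ± 3.31 and *Slc17a6* at 11.0 ± 3.01 overlapped over all 6 controls and were apart within each control genotype. The order in tumors was another one, led by *Slc6a11* (37.5 ± 16.1, n = 3), *Slc17a6* (33.2 ± 16.1) and *Slc17a7* (29.2 ± 13.0). *Gad1*, *Slc32a1* and *Gad2* followed at 16.7 ± 9.97, 5.63 ± 3.97 and 2.64 ± 1.30, with neighbours that overlapped, and *Slc6a5* was lowest and apart at 0.366 ± 0.144.

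**Figure D1:**
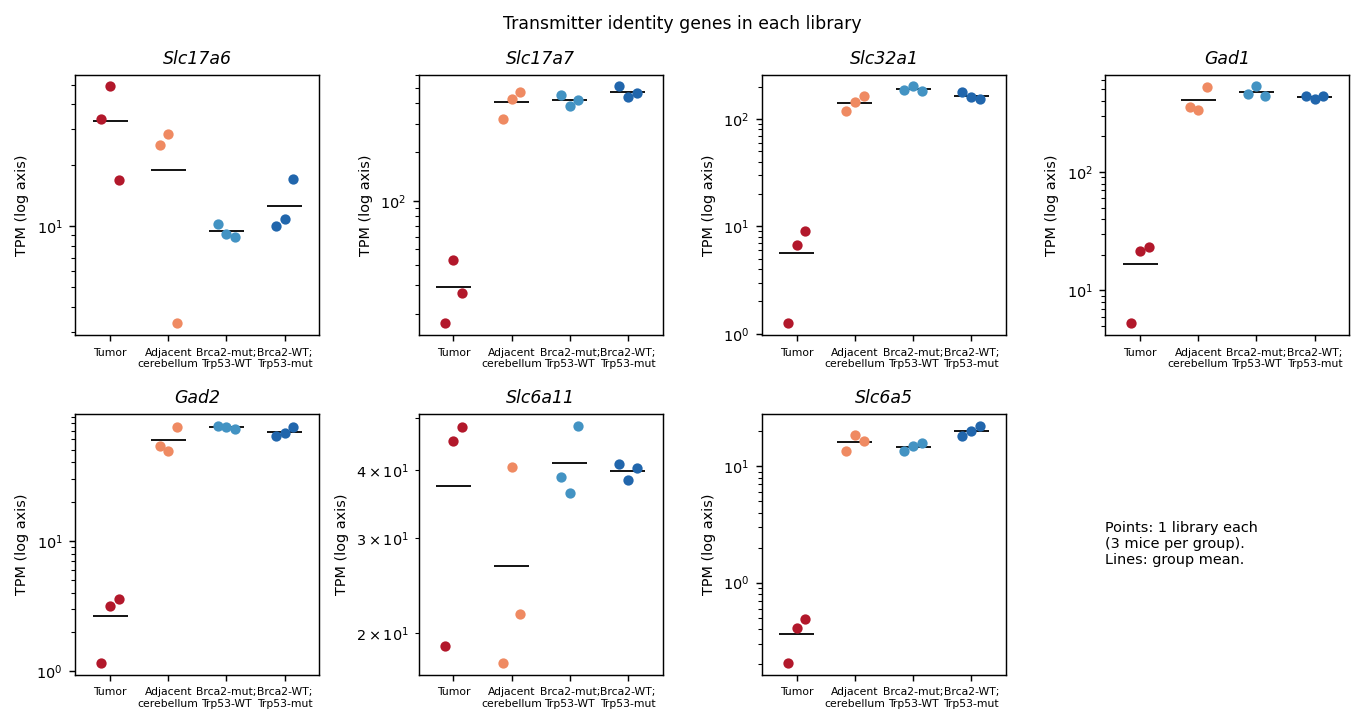
TPM of the 7 genes in each of the 12 libraries (log axis, its range set per panel), with points for libraries, ordered by mouse number within a group, and lines for group means. In 5 panels, those of *Slc17a7*, *Slc32a1*, *Gad1*, *Gad2* and *Slc6a5*, all 3 tumors lie below every other sample, while *Slc17a6* and *Slc6a11* overlap between tumors and other tissue. The share of all genes with tumors below every other sample was not counted.

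Tumors were compared with the 6 control cerebella to ask how transmitter identity differs between SHH medulloblastoma and adult cerebellum. The vesicular and synthetic genes for GABA, the glycine transporter and the mature glutamate transporter fell in tumors to between 2.09% and 6.57% of their control mean, whereas *Slc17a6* rose and *Slc6a11* was not called. Genes were called by limma on log2(TPM + 1) where the adjusted p was under 0.01 and the log2 fold change at least 1 in size. By that rule 5 of 7 genes were lower and 1 of 7 was higher. Of all 16241 genes tested, 21.5% were called lower and 14.4% higher. The median log2 fold change was -3.97 over the 7 genes and -0.11 over all genes.

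**Figure D2:**
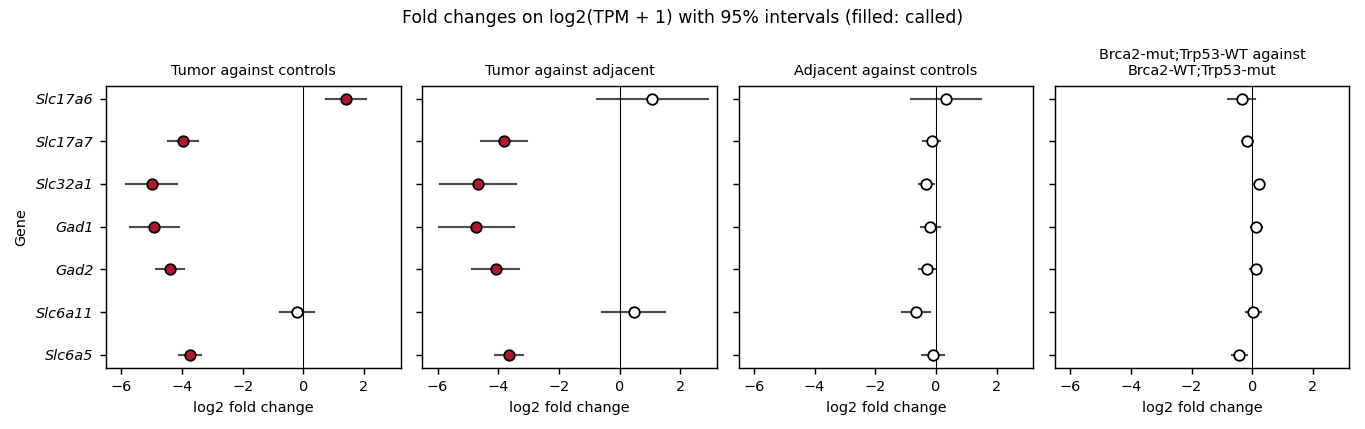
Log2 fold changes on log2(TPM + 1), with 95% intervals from limma, for the 7 genes in 4 comparisons (panels), filled where called. The same 5 genes are called lower in both tumor comparisons, between -3.65 and -5.00, *Slc17a6* is called higher only against controls, and no gene is called in the other panels.

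In tumors GB344, GB359 and GB370, *Slc17a7* was at 17.4, 43.2 and 27.1 TPM. It was at 449, 388 and 421 TPM in the Brca2-mut;Trp53-WT controls and at 509.6, 438 and 461 in the Brca2-WT;Trp53-mut controls. The groups did not overlap. The log2 fold change was -3.97 (SE 0.22, adjusted p = 9.27e-08, limma).

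*Slc17a6* was at 33.8, 48.9 and 16.8 TPM in the tumors. It was at 10.3, 9.19 and 8.83 TPM in the Brca2-mut;Trp53-WT controls and at 10.1, 10.9 and 17.0 in the Brca2-WT;Trp53-mut controls. Tumor GB370 lay just below control GB520, so the ranges overlapped, and the other tumors were above every control. The ratio of means was 3.0 and the log2 fold change 1.41 (SE 0.30, adjusted p = 0.00149, limma). The call was lost against the Brca2-WT;Trp53-mut controls alone (log2 fold change 1.24, adjusted p = 0.0273) and with all 4 groups in 1 fit (1.41, adjusted p = 0.0341).

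The proportions of the vesicular transporter pair differed between tumors and controls. The tumor mean of *Slc17a7* was 6.57% of the control mean and that of *Slc17a6* 300%, so the fall was the larger change. Tumor GB370, with *Slc17a6* at 16.8 TPM, lay within the control range of that gene. Of the summed *Slc17a6* and *Slc17a7* TPM, *Slc17a6* made up 66.0% in tumor GB344, 53.1% in GB359 and 38.3% in GB370 (52.5% ± 13.8, SD, n = 3). In the 6 controls it made up 1.94% to 3.55% (2.42% ± 0.58). Adjacent cerebellum had 7.21% and 6.29% in GB344 and GB359 and 0.696% in GB370. All tumors were thus above all other samples in this share, which was described without a test. The third vesicular glutamate transporter, *Slc17a8*, was at most 1.09 TPM in every sample and was not tested. Among the markers, the 8 of mature granule neurons summed to between 476 and 1142 TPM in tumors and between 3077 and 4166 in controls, and 7 of the 8 were called lower. Their part in the *Slc17a7* difference was not tested.

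**Figure D3:**
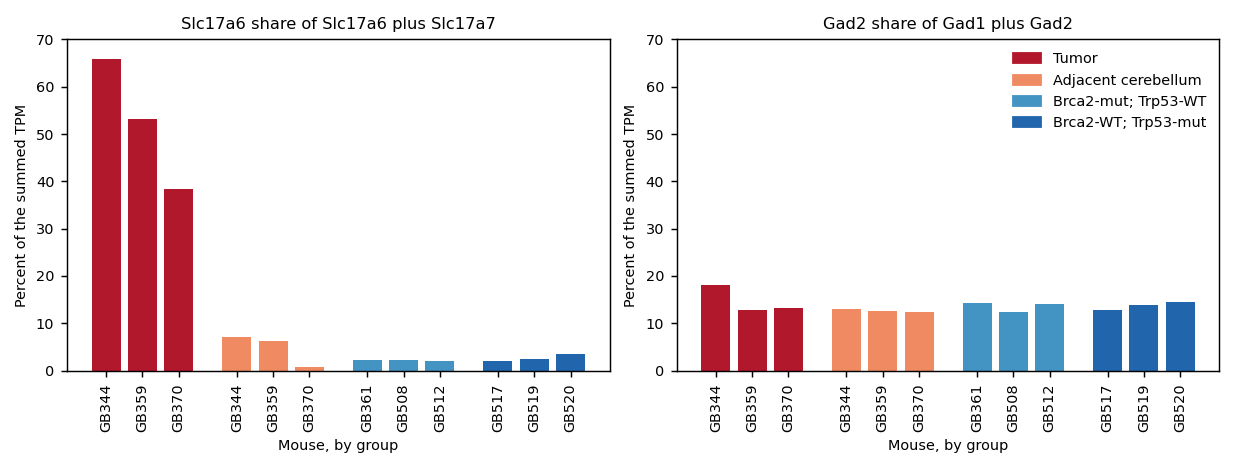
Share of *Slc17a6* in the summed vesicular glutamate transporter TPM (left) and of *Gad2* in the summed GAD TPM (right), in percent, 1 bar per library, coloured by group. Tumors reach 38.3% to 66.0% on the left against at most 7.21% elsewhere, while on the right tumor GB344 at 18.1% is the highest of 12 bars and the others lie between 12.4% and 14.6%.

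*Gad1* was at 5.26, 21.5 and 23.4 TPM in the tumors of GB344, GB359 and GB370. The Brca2-mut;Trp53-WT controls had 461, 530.1 and 438 TPM and the Brca2-WT;Trp53-mut controls 438, 417 and 439.7. The groups did not overlap, and tumor GB344 was the lowest sample. The log2 fold change was -4.91 (SE 0.36, adjusted p = 6.18e-07, limma), the 25th lowest of the 16241 genes tested.

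*Gad2* was at 1.16, 3.19 and 3.58 TPM in the tumors. Its controls had 76.6, 75.0 and 72.1 TPM with Brca2-mut;Trp53-WT and 64.1, 67.7 and 75.1 with Brca2-WT;Trp53-mut. The pattern was that of *Gad1*, with no overlap and GB344 lowest. *Gad2* had a log2 fold change of -4.39 (SE 0.20, adjusted p = 3.87e-08, limma). Of the summed TPM of the GAD genes, *Gad2* made up 12.9% and 13.3% in tumors GB359 and GB370, within the 12.4% to 14.6% of controls. In tumor GB344 the *Gad2* share was 18.1%, above every control. That share rests on low values, *Gad2* at 1.16 and *Gad1* at 5.26 TPM.

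*Slc32a1* was at 1.25, 6.66 and 8.99 TPM in the tumors of GB344, GB359 and GB370. It was at 188, 202 and 184 TPM in the Brca2-mut;Trp53-WT controls and at 180.1, 162 and 154 in the Brca2-WT;Trp53-mut controls. Every tumor was below every control, again with GB344 lowest. Its log2 fold change of -5.00 (SE 0.37, adjusted p = 7.63e-07, limma) was the largest fall of the 7 genes on the log2(TPM + 1) scale and the 21st lowest of all tested. As a share of the control mean in TPM, *Slc6a5* fell further, to 2.09% against 3.16% for *Slc32a1*.

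The level of these GABA genes within the tumors had the same order over mice as the Purkinje cell markers. In the tumors, in the order GB344, GB359, GB370, the 8 Purkinje markers summed to 58.2, 212 and 294 TPM, and in controls to between 4447 and 7480, and 8 of 8 were called lower. *Pcp2*, the Purkinje marker at the head of the list, was at 15.6, 78.7 and 124 TPM in the tumors. Molecular layer interneuron markers had the same order, with sums of 75.1, 78.5 and 84.3 TPM in tumors and 308 to 406 in controls, and 7 of 8 were called lower. Golgi and Lugaro cell markers had the opposite order, with sums of 23.3, 21.9 and 15.1 TPM. The rising order was not particular to GABAergic cells. Granule progenitor and SHH tumor markers (2304, 2691 and 2736 TPM) had it too. So did choroid plexus markers (48.0, 49.2 and 54.4) and brainstem neuron markers (13.0, 13.5 and 13.9). The granule neuron, unipolar brush cell, astrocyte, oligodendrocyte and microglia lists did not. No defining marker of the Purkinje list was at 0 in tumors, and the part of remaining cerebellar neurons in the tumor values of *Gad1*, *Gad2* and *Slc32a1* was not tested.

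**Figure D4:**
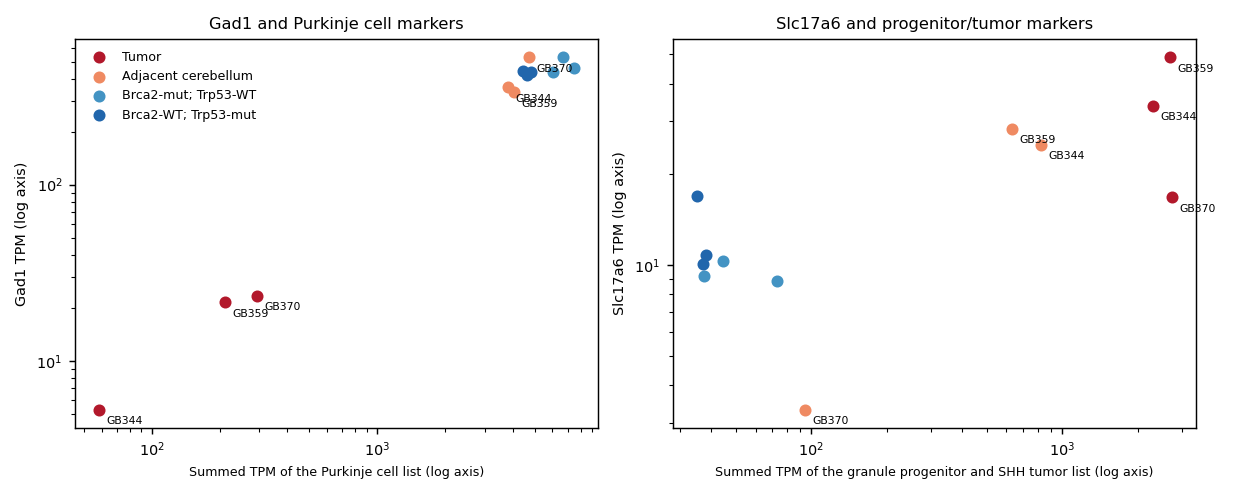
*Gad1* TPM against the summed TPM of 8 Purkinje cell markers (left) and *Slc17a6* TPM against that of 10 granule progenitor and SHH tumor markers (right), 1 point per library, all axes logarithmic, with tumor and adjacent mice named. On the left, tumor GB344 is lowest on both axes; on the right, adjacent GB344 and GB359 lie between controls and tumors on the marker axis and above tumor GB370 on the *Slc17a6* axis, and adjacent GB370 has the lowest *Slc17a6* at 3.31 TPM.

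*Slc6a5*, the neuronal glycine transporter, was at 0.206, 0.409 and 0.483 TPM in tumors. It was at 13.6, 14.9 and 15.8 TPM in the Brca2-mut;Trp53-WT controls and at 18.3, 20.0 and 22.3 in the Brca2-WT;Trp53-mut controls. All tumors were below 1 TPM and all controls above 13. The tumor mean was 2.09% of the control mean, the smallest share of the 7 genes, and the log2 fold change was -3.75 (SE 0.17, adjusted p = 3.00e-08, limma), a smaller number than the TPM ratio because 1 is added to each value. Golgi and Lugaro cell markers summed to 15.1 to 23.3 TPM in tumors and 126 to 165 in controls, with 6 of 7 called lower.

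*Slc6a11*, the glial GABA transporter, was at 19.0, 45.4 and 48.0 TPM in the tumors of GB344, GB359 and GB370. It was at 38.8, 36.4 and 48.4 TPM in the Brca2-mut;Trp53-WT controls and at 41.0, 38.3 and 40.4 in the Brca2-WT;Trp53-mut controls. Tumor GB344 was below every control, and the other tumors lay within the control range. The log2 fold change of -0.21 (SE 0.25, 95% interval -0.77 to 0.34, adjusted p = 0.454, limma) was not called, and without tumor GB344 it was 0.20. In the same tumors, 9 of 10 astrocyte and Bergmann glia markers were called lower, with a median log2 fold change of -3.10 and a summed level of 418 to 680 TPM against 3308 to 4483 in controls.

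Tumor GB344 had the lowest value of the 3 tumors for 6 of 7 genes, all but *Slc17a6*. The spread between tumors was wide, with an SD of 39.3% to 70.5% of the mean by gene, against 6.83% to 27.3% in controls.

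Tumors were next compared with the cerebellum left beside them, from the same mice. The same 5 genes were lower, with log2 fold changes of -4.68 for *Slc32a1*, -4.73 for *Gad1*, -4.09 for *Gad2*, -3.82 for *Slc17a7* and -3.65 for *Slc6a5* (SE 0.53, 0.52, 0.33, 0.32 and 0.19), and adjusted p between 1.86e-04 and 6.60e-04 by limma. The median log2 fold change was -3.82 over the 7 genes and -0.14 over all genes. Of the 15845 genes tested, 18.0% were called lower and 4.76% higher, and the called genes were 20.9% higher, or 34.4% after median-of-ratios scaling and 42.2% after quantile normalization. Within mice, *Gad1* in the tumor was 1.47%, 6.41% and 4.43% of its adjacent value in GB344, GB359 and GB370. *Slc32a1* was 1.05%, 4.59% and 5.50%, and *Slc6a5* was 1.52%, 2.20% and 2.94%. *Slc17a7* was 5.41%, 10.2% and 5.72%, and *Gad2* was 2.17%, 6.54% and 4.78%. Each of these genes was lower in the tumor in 3 of 3 mice.

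With adjacent GB370 as the only adjacent sample, 2 of 7 genes, *Gad2* and *Slc6a5*, were called lower, as were 3.77% of all genes; the fold changes of *Slc17a7*, *Slc32a1* and *Gad1* were then -4.06, -4.88 and -5.13, with adjusted p of 0.0106, 0.0212 and 0.0167. This fit takes the lone sample to vary as the tumors do.

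*Slc17a6* and *Slc6a11* were not called between tumor and adjacent cerebellum. *Slc17a6* in the tumor was 1.35, 1.72 and 5.08 times its adjacent value in GB344, GB359 and GB370, higher in 3 of 3 mice. The log2 fold change was 1.08 (SE 0.77, 95% interval -0.75 to 2.90, adjusted p = 0.279, limma), and 2.86 with adjacent GB370 as the only adjacent sample (adjusted p = 0.0303). *Slc6a11* was 1.08, 1.12 and 2.21 times its adjacent value, with a log2 fold change of 0.45 (SE 0.43, 95% interval -0.57 to 1.48, adjusted p = 0.410).

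Adjacent cerebellum was compared with the same 6 controls to ask whether the tissue beside a tumor differs. By limma, 0 of 7 genes were called, and 3 of 7 had an unadjusted p under 0.05, as did 34.5% of all genes tested. The median log2 fold change was -0.18 over the 7 genes and 0.07 over all genes. Over all 16091 genes tested, 0.0124% were called lower and 0.224% higher, and 94.7% of called genes were higher, or 87.9% after median-of-ratios scaling and 69.5% after quantile normalization. *Slc17a6* was at 25.0, 28.4 and 3.31 TPM in adjacent GB344, GB359 and GB370, against 8.83 to 17.0 in controls. GB344 and GB359 were above every control and GB370 was below every control, so a single mean describes none of the 3. The log2 fold change was 0.34 (SE 0.52, adjusted p = 0.679). Without adjacent GB370 it was 1.23 and called (adjusted p = 0.00383), and with GB370 alone it was -1.45 (adjusted p = 0.0694). Among the 3 adjacent samples, *Slc17a6* was high in the mice with high *Atoh1* and progenitor marker sums. The tumors did not keep that order. Tumor GB370 had the highest *Atoh1* (319 TPM) and marker sum (2736) and the lowest *Slc17a6* (16.8). Tumor GB344 had the lowest *Atoh1* (119) and sum (2304), with *Slc17a6* at 33.8. The part of tumor cells in the adjacent values was not tested.

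*Slc6a11* was at 17.6, 40.6 and 21.7 TPM in adjacent GB344, GB359 and GB370, against 36.4 to 48.4 in controls. GB344 and GB370 were below every control and GB359 was within their range. The log2 fold change was -0.67 (SE 0.21, adjusted p = 0.0553, limma), and without adjacent GB359 it was -1.01 and called (adjusted p = 0.00792). Oligodendrocyte markers had a like order over mice, with sums of 1774.5, 4771 and 2180.0 TPM against 3542 to 5440 in controls. Granule neuron markers had that order too, with sums of 2645, 3713 and 3185 TPM against 3077 to 4166 in controls. Astrocyte and Bergmann glia markers had another order, with sums of 3539.9, 3269 and 4572 TPM against 3308 to 4483 in controls. None of the remaining lists had the order of *Slc6a11*. In tumors, oligodendrocyte markers summed to 114 to 331 TPM, with *Slc6a11* at 19.0 to 48.0. The part of these cell types in the *Slc6a11* values was not tested. With adjacent GB370 as the only adjacent sample, the log2 fold change of *Slc6a11* was -0.87 (adjusted p = 0.0415).

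None of the inhibitory genes *Gad1*, *Gad2* and *Slc32a1* was called. *Gad1* was at 358, 335 and 528 TPM in adjacent GB344, GB359 and GB370, against 417 to 530.1 in controls. *Gad2* was at 53.5, 48.8 and 74.9, against 64.1 to 76.6, and *Slc32a1* at 119, 145 and 163, against 154 to 202. For each of the 3 genes GB344 and GB359 were below every control and GB370 was within their range. GB370, with the fewest progenitor transcripts, had the highest level of each of these 3 genes. The log2 fold changes were -0.18 (SE 0.14, adjusted p = 0.368) for *Gad1*, -0.30 (SE 0.12, adjusted p = 0.116) for *Gad2* and -0.33 (SE 0.11, adjusted p = 0.0703) for *Slc32a1*. With adjacent GB370 alone they were 0.22, 0.06 and -0.12. *Slc17a7* was at 322, 423 and 473 TPM and *Slc6a5* at 13.6, 18.6 and 16.4, and both overlapped the controls, with log2 fold changes of -0.14 (SE 0.12, adjusted p = 0.429) and -0.10 (SE 0.16, adjusted p = 0.701). With adjacent GB370 alone these were 0.093 and -0.067.

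The control genotypes were compared with each other. No group without either mutation was analysed here, so a change common to both genotypes cannot be seen. By limma, 0 of 7 genes were called between cerebella labelled Brca2-mut;Trp53-WT and Brca2-WT;Trp53-mut, and 2 of 7 had an unadjusted p under 0.05, as did 20.1% of all genes tested. Over all 15575 genes tested, 0.0449% were called lower and 0.0128% higher, which is 7 and 2 genes. By median-of-ratios scaling these were 2 and 2 genes, and by quantile normalization 1 and 2. *Slc6a5* was lower in all 3 Brca2-mut;Trp53-WT samples, at 73.1% of the other genotype (log2 fold change -0.43, SE 0.10, adjusted p = 0.105, limma). *Slc32a1* was higher in all 3, at 116% (log2 fold change 0.21, SE 0.07, adjusted p = 0.185, limma). The remaining 5 genes overlapped between genotypes, and their log2 fold changes lay between -0.35 and 0.14. The share of all genes that separated the genotypes without overlap was not counted. Purkinje markers summed to 6049 to 7480 TPM in Brca2-mut;Trp53-WT and 4447 to 4832 in Brca2-WT;Trp53-mut cerebella, and choroid plexus markers to 30.7 to 889.6 and 3978 to 5199. Their part in the *Slc32a1* and *Slc6a5* values was not tested.

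The genes around each transmitter were then described from lists of uptake, synthesis and lineage genes. Of all 16241 genes tested in tumors against controls, 21.5% were called lower and 14.4% higher. No list was tested against these shares. For glutamate, 9 of 12 supply and uptake genes tested fell in tumors against controls and 0 rose, with a median log2 fold change of -1.52. The largest falls were those of the Purkinje cell glutamate transporter *Slc1a6* (-4.85), the aspartate aminotransferase *Got1* (-3.37), the glutaminase *Gls2* (-2.74) and the glial glutamate transporter *Slc1a3* (-2.44). For GABA, 6 of 7 uptake and breakdown genes fell and 0 rose, with a median of -2.16. They included the GABA transaminase *Abat* (-2.92) and *Slc6a13* (-2.63), a GABA transporter of meninges and vessels. The list also counted the monoamine oxidase *Maob* (-2.16), which does not itself break down GABA. *Slc6a11* was thus not called while the GABA transporters *Slc6a12* (-2.03) and *Slc6a13* fell.

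For glycine the called genes went both ways, 2 of 7 lower and 2 of 7 higher, beside 21.5% and 14.4% of all genes. The glial glycine transporter *Slc6a9* (-2.35) and the cleavage enzyme *Amt* (-1.75) fell, and the serine hydroxymethyltransferases *Shmt1* (3.17) and *Shmt2* (2.08), which interconvert serine and glycine and feed one-carbon metabolism, rose. The other 3 of 7 genes were not called, and the median was -0.76.

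Of the factors that specify or mark GABAergic neurons, 9 of 15 were expressed well enough to test. In tumors 5 fell, among them *Tfap2b* (-3.57), *Lhx5* (-3.37) and *Pax2* (-2.85), which mark inhibitory precursors and interneurons. *Tlx3* (2.10) and *Olig2* (1.70) rose. Neither is a marker of mature GABAergic neurons: *Tlx3* favours a glutamatergic fate in the spinal cord, and *Olig2* is also a factor of the oligodendrocyte lineage. Of 14 glutamatergic lineage factors tested, 4 rose and 4 fell, beside 14.4% and 21.5% of all genes. The factor of granule progenitors *Atoh1* rose by 7.61 and its downstream gene *Barhl1* by 4.08, followed by *Lhx2* (3.50) and *Meis1* (1.39). *Eomes* (-2.67) and *Lmx1a* (-1.05), factors of unipolar brush cells, fell, as did *Neurod2* (-2.43), a factor of maturing neurons, and *Meis2* (-1.58). All 5 of 5 unipolar brush cell markers were called lower, so the rise of *Slc17a6* stood beside lower markers of one adult cell type that expresses it. The brainstem neuron list held Hox and Phox2 factors and genes of serotonin, acetylcholine and noradrenaline neurons. It held no glutamate gene, so it cannot show whether *Slc17a6*-expressing neurons from outside the cerebellum were present. Of its genes 3 of 16 reached the expression minimum, and 1 of these, the noradrenaline transporter *Slc6a2*, rose (2.55, adjusted p = 6.92e-06, limma). The whole list summed to 13.0 to 13.9 TPM in tumors, to 14.1 in control GB512 and to 3.90 to 6.61 in the other 5 controls, and its part in the *Slc17a6* difference was not tested.

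**Figure D5:**
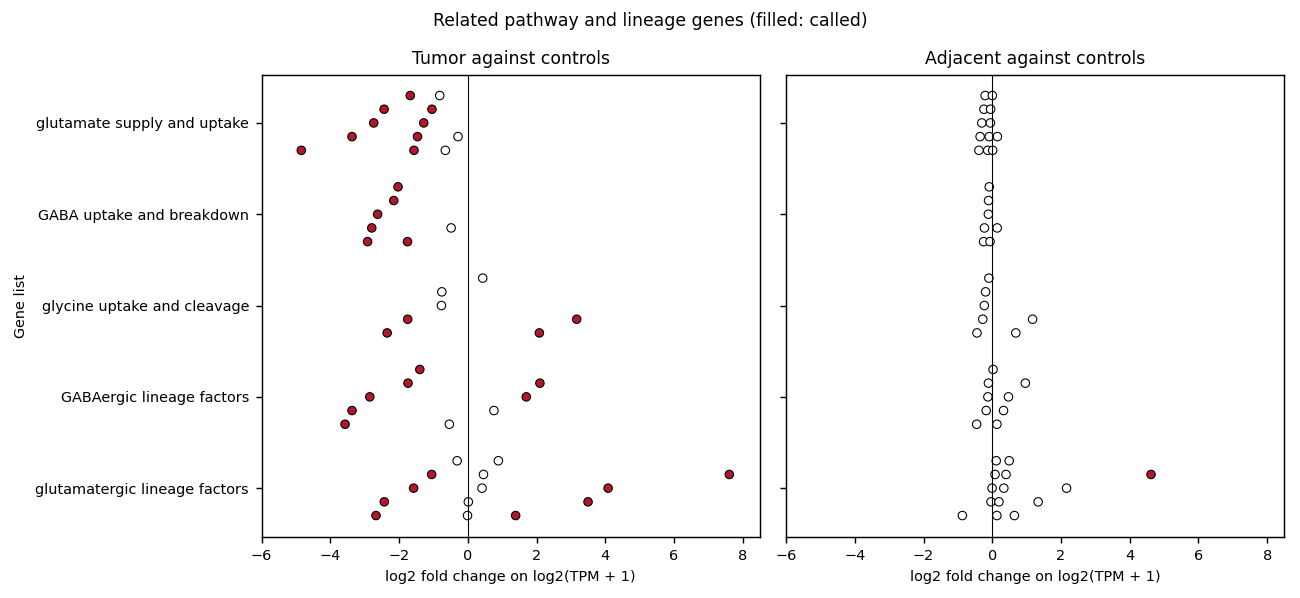
Log2 fold changes on log2(TPM + 1) of the genes of 5 lists related to glutamate, GABA and glycine, 1 point per tested gene, filled where called, in tumors (left) and adjacent cerebellum (right) against the same controls. Called points on the left lie below 0 for glutamate and GABA handling and on both sides for the other lists, and on the right only *Atoh1* at 4.62 is called.

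Against adjacent cerebellum, tumors had 0 genes higher and 7 of 12 lower for glutamate supply and uptake, 0 and 5 of 7 for GABA uptake and breakdown, and 1 and 2 of 7 for glycine. They had 2 higher and 5 lower of 9 GABAergic lineage factors, and 0 higher and 2 lower of 12 glutamatergic ones. Of all genes tested in that comparison, 4.76% were called higher and 18.0% lower. With adjacent GB370 only, the counts of higher and lower genes were 0 and 3 for glutamate, 0 and 0 for GABA, 1 and 0 for glycine, 1 and 3 for GABAergic factors and 2 and 1 for glutamatergic factors. In adjacent cerebellum against controls, 1 gene of the 5 lists was called, *Atoh1* (4.62, SE 0.60, adjusted p = 0.00883, limma). Of all genes tested there, 0.224% were called higher and 0.0124% lower. With GB370 only, *Atoh1* was again the 1 gene called (2.47, SE 0.21, adjusted p = 0.00379).

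Profiles over all 12 samples were compared by the root mean square difference of log2(TPM + 1) after centring each gene, over 16498 genes. The profile nearest to *Gad1* was that of *Slc12a5* (0.10), the neuronal chloride exporter KCC2 that makes GABA inhibitory, followed by *Elmod1* (0.14) and *Ckmt1* (0.15). Nearest to *Gad2* were *Rgs7bp* (0.10), *Iqsec3* (0.14) and *Pip5k1b* (0.15). Among the nearest to *Slc32a1* were *Ckmt1* (0.14) and *Gad1* (0.15). *Slc17a7* was nearest to *Caln1* (0.12), *Tspan17* (0.13) and *Lgi1* (0.14), and *Slc6a5* to *Prune2* (0.19), *Tspan17* (0.20) and *Cnnm1* (0.20). The neighbours of *Slc17a6* and *Slc6a11* were farther off. They were *Hfm1* (0.37), *Fbxo32* (0.46) and *Ahcy* (0.46) for *Slc17a6*, and *Sema3e*, *Bcas1* and *1500009L16Rik* (0.27 each) for *Slc6a11*. The lists depended on the measure: with a pseudocount of 0.1, 3 of 3 neighbours were kept for *Gad1* and *Slc6a11* and 0 of 3 for *Slc32a1* and *Slc6a5*, and by Pearson correlation 1 of 3 was kept for *Slc17a7*, *Gad1*, *Slc6a11* and *Slc6a5* and 0 of 3 for *Slc17a6*, *Slc32a1* and *Gad2*.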

How the data were processed

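Poly(A) RNA of 12 mouse samples was sequenced. The authors quantified transcripts with Salmon 0.8.1 on the mm10 knownGene set and deposited gene-level TPM for 24091 genes, of which 2603 were at 0 in all samples. The study tested counts with DESeq2, and counts were not used here. Columns were assigned to samples by title. TPM + 1 were log2-transformed. A gene entered a comparison when 3 or more of its samples reached 1 TPM. Tests were run with limma 3.58.1 (lmFit, eBayes with a trend; R 4.3.3). Adjusted p are Benjamini-Hochberg values across every gene in the test, and the thresholds are those of the study (adjusted p 0.01, log2 fold change 1). Such fold changes understate changes of genes with low TPM. Each fit held only the groups compared. The script was tested on simulated data.

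The genes and the lists were chosen with earlier results of these data known, so no list is independent evidence. The text names all 7 genes, up to 4 called genes per list by absolute log2 fold change against controls, list heads, and the 3 nearest profiles per gene, except items that are not reported here. *Slc6a12*, *Slc17a8*, *Meis1*, *Meis2*, *Neurod2*, *Lmx1a* and *Olig2* were named after their values were seen. The comparisons share samples. Tumor and adjacent samples come from the same mice, and their deviations from the group means correlated at 0.25, 0.18 and 0.15 over 15845 genes. Whether same-group samples differ by litter or day is not given in the sources used here, nor is Cre status in Brca2-WT;Trp53-mut mice.

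Alternatives were pseudocounts of 0.1 and 0.01, no filter or 5 TPM, 2 rescalings, no trend, all groups in 1 fit, single control genotypes, a block for the mouse, a looser adjusted p of 0.05, and each sample left out. Adjacent GB370 as the only adjacent sample was added after seeing the data.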

Additional observations from a re-analysis of the deposited data

Results flagged for a closer look

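Of 9 quantities examined over the 6 controls (the 7 genes and both shares), 2 had a sample far from the rest, and chance gives such a gap in about 1 of 20 groups. *Slc17a6* was at 17.0 TPM in the Brca2-WT;Trp53-mut control GB520, against 8.83 to 10.9 in the other 5 controls, a gap of 0.75 of the whole range. In the same sample the *Slc17a6* share of vesicular glutamate transporter TPM was 3.55%, against 1.94% to 2.42%, a gap of 0.70 of the range. These values share the *Slc17a6* measurement and are not independent.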

How the results depend on the processing

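Of 511 recomputed fold changes of the 7 genes, 493 kept their direction and their side of the threshold, 5 lost a call, 2 gained one and 11 changed sign. The 5 falls in tumors against controls kept their call under every alternative run. Against adjacent cerebellum the count of called genes was 5, also with the mouse as a replicate block, which changed no call, and 2 with adjacent GB370 only. In adjacent cerebellum against controls, 0 genes were called, 0 to 1 with a sample left out (1 without GB359 or without GB370). There the fold changes with a sample left out ran from -0.15 to 1.23 for *Slc17a6*, -0.26 to 0.013 for *Slc17a7* and -0.20 to 0.0175 for *Slc6a5*, which was 0.12 against the Brca2-mut;Trp53-WT controls alone. With adjacent GB370 only they were -1.45 for *Slc17a6*, 0.093 for *Slc17a7*, 0.22 for *Gad1* and 0.064 for *Gad2*. *Slc6a11* ran from -0.44 to 0.20 in tumors against controls and from -0.084 to 0.12 between control genotypes. The cause of these changes was not tested. Quantile normalization moved the median of all genes in tumors against controls from -0.11 to 0.04. Read depth is unknown, so the counting error of low values, such as *Slc6a5* below 1 TPM in tumors, could not be estimated.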
